A study of Mus musculus with 8 samples.

Results

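Solute carriers are the largest group of membrane transporters, and 412 probe sets of the array used here represent 259 of their genes. The set was taken by gene symbol. It holds every probe set annotated to 1 gene alone whose symbol begins with Slc and a number, other than those of Slc2a1, Slc40a1 and Slc45a2. A probe set is a group of short array probes that is summarized to 1 value for a transcript. On the array 12393 genes are named alone by a probe set. Leaving out array controls, 11290 probe sets were bright, with a mean log2 intensity of at least 7.7 over the 8 arrays, and 150 of these, from 109 genes, were solute carrier probe sets. The remaining 262 solute carrier probe sets, from 189 genes, were dimmer, and a gene can have probe sets of both kinds. The choice used brightness over all arrays and not the difference between groups, but 3 bright solute carrier probe sets, of Slc48a1, Slc66a1 and Slc10a3, passed only through the group in which they were high, since all 4 samples of the other group lay under 7.7.

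The RNA came from whole lenses of mouse embryos at embryonic day 15.5 (E15.5). There were 4 dnBrg1 transgenic samples and 4 wild type samples, all on a mixed background. Brg1 is the ATPase of SWI/SNF chromatin remodeling complexes, and dnBrg1 is a mutant that interferes with the normal protein. It is made from the αA-crystallin promoter, which is active in postmitotic lens fiber cells, and the study worked with 1 founder line carrying the transgene on top of the normal Brg1 alleles and with wild type littermates as controls. In whole lenses, fewer cells of a type and less RNA per cell cannot be told apart.

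Solute carriers move ions, metals, sugars, amino acids, nucleotides and vitamins across cell and organelle membranes. The lens has no blood supply after its embryonic vessels regress, so its cells take nutrients and antioxidants from the surrounding fluids, and loss of several of these transporters is known to cloud the lens. Fiber cells later degrade their nuclei and organelles, while mitochondrial, Golgi and lysosomal carriers act within such organelles.

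All differences below are log2 intensity in dnBrg1 minus wild type, a value after ± is the standard error unless SD is named, and a probe set is called higher or lower at a Benjamini-Hochberg adjusted p under 0.05 from limma fitted to all probe sets other than array controls. Array medians ran from 7.62 to 7.71 on the log2 scale. The probe set of Smarca4, the gene of Brg1, that had a mean of 8.56 lay between 9.65 and 9.88 in dnBrg1 samples and between 6.79 and 7.87 in wild type samples, whereas its brighter probe set was not called (-0.24, adjusted p = 0.12). By their descriptions, dnBrg1 replicates 1 and 2 and all wild type samples were polysome-bound RNA and dnBrg1 replicates 3 and 4 were total RNA, although total RNA is the molecule given for all 8. The 5 of 9 lens fiber markers on the array summed to intensities of 54892 to 61368 in dnBrg1 and 45289 to 53098 in wild type samples. Of these only Bfsp1 was called (1.54, adjusted p = 8.5e-05), while Cryaa (0.04), Cryab (0.23), Mip (-0.05) and Dnase2b (-0.63) were not. Erythroid markers (6 of 8 on the array) summed to 2375 to 10464 in dnBrg1 and 4786 to 8351 in wild type samples, with none called. Of 8 macrophage markers, which summed to 2336 to 4710 in dnBrg1 and 8091 to 9873 in wild type samples, 3 were called higher and 2 lower. The array's controls for RNA integrity compare probe sets at the 3' and 5' ends of 1 transcript, and for β-actin this difference was 0.58 ± 0.06 in dnBrg1 and 2.498 ± 0.48 in wild type samples (SD, n = 4 each; two-sided exact permutation test, p = 0.0286, the smallest possible over 70 assignments). For Gapdh it was 0.67 ± 0.02 in dnBrg1 and 1.59 ± 0.58 in wild type samples (SD, n = 4 each; exact p = 0.0286), and p was 0.0286 for both after adjustment.

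Among the 150 bright solute carrier probe sets, 35 were called higher and 45 lower in dnBrg1 lenses. This was 53.3% of them, against 53.5% of all 11290 bright probe sets, where 27.7% were called higher and 25.8% lower, and against 40.8% of all probe sets tested. The share of solute carrier probe sets that differed was therefore that of bright probe sets in general. Their median difference was -0.08, against -0.01 for all bright probe sets, and the median size of a difference, whatever its sign, was 0.43 in both. The 4 dnBrg1 samples lay wholly above the 4 wild type samples for 39 probe sets and wholly below for 41, again 53.3%, the same as for bright probe sets in general (53.3%). A change of at least 1.5-fold accompanied the call for 26 higher and 32 lower probe sets, or 38.7%, against 37.0% of bright probe sets in general, and one of at least 2-fold for 7 higher (4.67%, against 10.1% of bright probe sets in general) and 14 lower (9.33%, against 6.70%). Of these 14, 6 belonged to Slc9a3r1 and Slc9a3r2, which do not encode transporters. Counting only the brightest probe set of each of the 109 genes, 21 genes (19.3%) were higher and 32 (29.4%) lower, against 25.0% and 27.6% of all genes with a bright probe set.

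The counts are given by substrate class, without a test of the differences between classes. Of all bright probe sets, 53.5% were called, 27.7% higher and 25.8% lower. The share called was 62.5% for metals, 47.2% for mitochondrial carriers and 76.9% for vitamins, nucleosides, heme and choline. It was 30.8% for inorganic ions, 56.0% for amino acids and peptides and 47.1% for nucleotide sugars. Of 16 bright probe sets for zinc, copper, magnesium and other metals, 7 were called higher and 3 lower, with a median of 0.32. Mitochondrial carriers had 11 higher and 6 lower of 36 (median 0.16), and 7 of the 11 were probe sets of the single gene Slc25a5. This class was taken as the whole SLC25 family, so its higher calls include the peroxisomal carrier Slc25a17. By contrast, 8 of 13 probe sets for vitamins, nucleosides, heme and choline were lower and 2 higher (median -0.44). These 13 came from 8 genes, and Slc19a1 and Slc46a1 each gave 2 of the lower calls. Of 13 for inorganic ions, 4 were lower and none higher (median -0.35). Amino acid and peptide transporters had 7 higher and 7 lower of 25 (median -0.11), and nucleotide sugar transporters 5 higher and 3 lower of 17 (median -0.10). The smaller classes were lipids, acetyl-CoA and organic ions (none higher and 2 lower of 7, median -0.18), sugars (1 higher and 2 lower of 8, median -0.04), neurotransmitters, taurine and creatine (1 higher and 2 lower of 5, median 0.06) and monocarboxylates (1 higher of 2). A last group of 8 probe sets belongs to Slc9a3r1, Slc9a3r2 and Slc4a1ap, whose proteins are not transporters and are grouped here as associated proteins. All 8 were lower (median -1.20). Without these, 35 probe sets were higher and 37 lower of 142, or 50.7%.

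**Figure D1:**
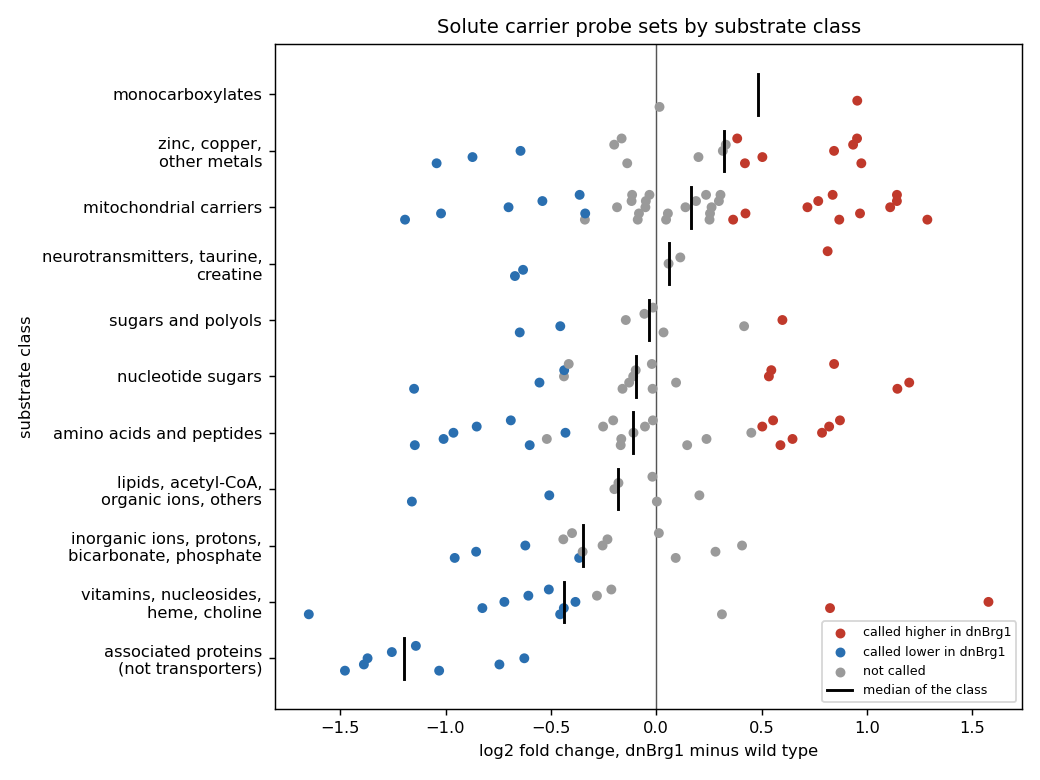
Each point is 1 bright solute carrier probe set, placed by its log2 difference (dnBrg1 minus wild type, horizontal axis) within its substrate class (vertical axis, ordered by median), in red if called higher, blue if called lower and grey if not called. Black bars mark class medians, from 0.48 for the 2 monocarboxylate probe sets to -1.20 for the associated proteins.

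The RNA integrity controls followed genotype without overlap, with a mean over β-actin and Gapdh of 0.59 to 0.65 in dnBrg1 and 1.43 to 2.66 in wild type samples. When this mean was added to the fit as a covariate, 7 bright solute carrier probe sets were called, and 9.48% of all bright probe sets. Of the 80 calls, 5 remained calls, namely those of Slc38a1, Slc38a10 (1456241_a_at), Slc39a1, Slc9a3r1 (1438115_a_at) and Slc12a2 (1448780_at), while 1 probe set each of Slc27a4 and Slc35e1 was called anew. A further 23 kept their sign at a size that was at most 1.5 times smaller, but were no longer called. The sign was kept by 29 of 35 higher and 35 of 45 lower probe sets. Of the 16 whose sign turned, none was called, with adjusted p of 0.18 or more. The median standard error was 0.14 without and 0.27 with the covariate. Class medians with it were 0.15 for metals, 0.16 for mitochondrial carriers, 0.006 for vitamins, nucleosides, heme and choline, and -0.02 for inorganic ions. The median of the associated proteins was then -0.95. The part of RNA integrity in the differences beyond these values was not tested. The control mean hardly varied among dnBrg1 samples, so the slope of the covariate rested almost wholly on the wild type samples. The fit thus extends the trend among wild type samples to control values that none of them had. A call kept or a sign turned in it therefore cannot decide how much of a difference goes with RNA integrity.

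**Figure D2:**
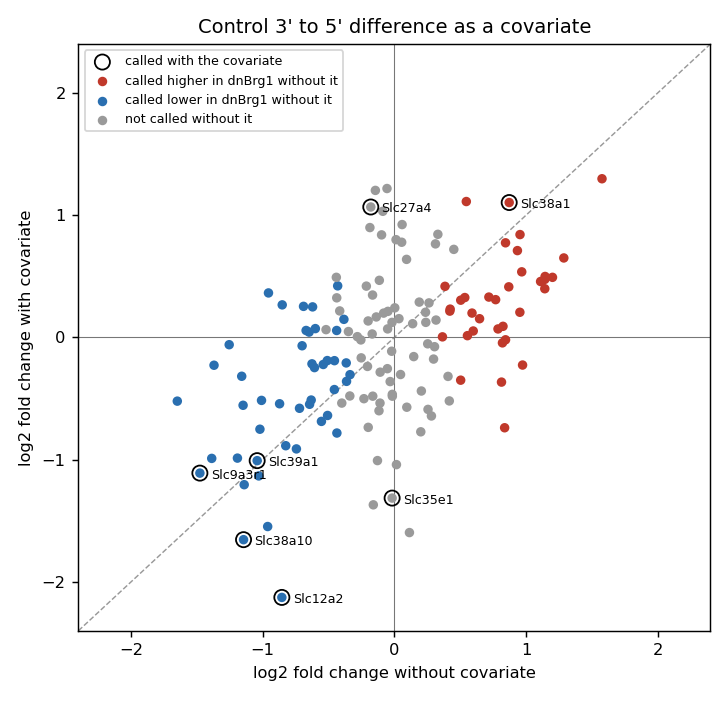
Each point is 1 bright solute carrier probe set, with its log2 difference (dnBrg1 minus wild type) in the plain fit on the horizontal axis and in the fit that also holds the RNA integrity controls on the vertical axis. Colors give the call in the plain fit, black rings mark the 7 probe sets called with the covariate, and the dashed line marks equal values, so that points in the upper left and lower right turned sign.

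Zinc transporters fall into the ZnT family (Slc30), which moves zinc out of the cytosol, and the ZIP family (Slc39), which moves it into the cytosol. Of 5 bright ZnT probe sets, 2 were higher and none lower (40.0% called). Of 8 bright ZIP probe sets, 3 were higher and 3 lower (75.0% called). The share called was 53.5% for all bright probe sets. The most strongly lowered was Slc39a1 (ZIP1), a plasma membrane importer, at 11.42, 11.23, 11.35 and 11.30 in dnBrg1 samples and 12.38, 12.30, 12.30 and 12.48 in wild type samples. All dnBrg1 values lay well below all wild type values, a 2.06-fold decrease (-1.04 ± 0.10, adjusted p = 5.2e-05). Slc39a1 kept nearly this size in the fit with the RNA integrity covariate (-1.01, adjusted p = 0.035).

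Slc39a7 (ZIP7), which releases zinc from the endoplasmic reticulum, behaved in the opposite way, at 11.22, 11.10, 11.15 and 11.06 in dnBrg1 samples and 10.28, 9.83, 10.48 and 10.13 in wild type samples. The groups were again separate (0.95 ± 0.14, adjusted p = 0.00064), but the difference was 0.21 with the covariate (adjusted p = 0.57). Slc39a9 (ZIP9) was at 9.95, 10.02, 9.72 and 9.89 in dnBrg1 and 8.91, 8.93, 9.14 and 8.87 in wild type samples, again without overlap (0.93 ± 0.11, adjusted p = 0.00018). Slc39a14 (ZIP14), a carrier of zinc and iron, was higher by 0.84 ± 0.18 (adjusted p = 0.0043). Slc39a13 (ZIP13), a zinc carrier of the secretory pathway that is known for its part in connective tissue, was lower by -0.87 ± 0.13 (adjusted p = 0.00055), and Slc39a11 (ZIP11) by -0.64 ± 0.11 (adjusted p = 0.0014). Slc39a6 (0.32, adjusted p = 0.092) and Slc39a8 (-0.20, adjusted p = 0.20) did not pass the test with their bright probe sets, but a dim probe set of Slc39a6 was called higher (1.47, adjusted p = 9.4e-05), also with the covariate (2.18, adjusted p = 0.013).

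The promoters of Slc39a1 and Slc39a7 are shown because these 2 importers, at the cell surface and at the endoplasmic reticulum, changed in opposite directions. Each sequence runs from 250 bases before to 50 bases after the RefSeq gene start (GRCm38.p6) and is written 5′ to 3′ on the gene's strand. Capitals mark matches to TGCNCNC, a relaxed form of the metal response element core that takes any base at N, searched on both strands. A match to this form need not fit the stricter core. At the first N, all stretches marked here carry T or C, read on the matching strand. None of them therefore fits a core limited to A or G at that base. Slc39a1 lies on the plus strand at chr3:90247942-90248241 and Slc39a7 on the minus strand at chr17:34031641-34031940.
Slc39a1: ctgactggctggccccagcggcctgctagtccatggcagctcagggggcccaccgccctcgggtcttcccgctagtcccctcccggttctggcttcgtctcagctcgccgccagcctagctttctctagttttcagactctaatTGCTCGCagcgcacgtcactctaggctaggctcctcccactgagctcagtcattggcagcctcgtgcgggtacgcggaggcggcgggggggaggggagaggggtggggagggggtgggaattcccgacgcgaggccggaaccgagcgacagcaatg
Slc39a7: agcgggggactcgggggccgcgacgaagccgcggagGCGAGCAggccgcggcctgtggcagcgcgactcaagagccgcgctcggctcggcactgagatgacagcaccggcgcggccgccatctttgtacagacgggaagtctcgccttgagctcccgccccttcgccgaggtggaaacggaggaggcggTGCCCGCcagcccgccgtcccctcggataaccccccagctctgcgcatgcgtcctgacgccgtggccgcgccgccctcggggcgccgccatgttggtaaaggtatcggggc

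The Slc39a1 window held 1 match, and the Slc39a7 window held 2, 1 on each strand. Of the 15 metal transporter genes with a bright probe set, 13 had a window and 9 of these held a match in at least 1 window. Slc39a8 and Slc39a11 had more than 1 window. The same letters occurred in 51.0% of all 32851 windows of 300 bases, which is a share of windows and not of genes. A match is thus common and is given as a description only.

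Among the ZnT genes, Slc30a5 (ZnT5), which loads zinc into the secretory pathway, was at 11.35, 11.41, 11.29 and 11.17 in dnBrg1 samples and 10.19, 9.92, 11.04 and 10.17 in wild type samples. Wild type replicate 3 came close to the dnBrg1 values and the others were lower (0.97 ± 0.22, adjusted p = 0.0058). Its difference turned to -0.23 with the covariate (adjusted p = 0.70). Slc30a6 (ZnT6), its partner in a heterodimer, was higher by 0.50 ± 0.13 (adjusted p = 0.014). Slc30a4, Slc30a7 and the bright mitochondrial Slc30a9 did not pass the test, with differences of -0.14, 0.33 and -0.16 (adjusted p = 0.29, 0.13 and 0.28). Outside the zinc families, the copper importer Slc31a1 was higher with 1 of its probe sets (0.38 ± 0.09, adjusted p = 0.0066) and not called with the other (0.20, adjusted p = 0.45), and the magnesium transporter Slc41a1 was higher by 0.42 ± 0.11 (adjusted p = 0.016).

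**Figure D3:**
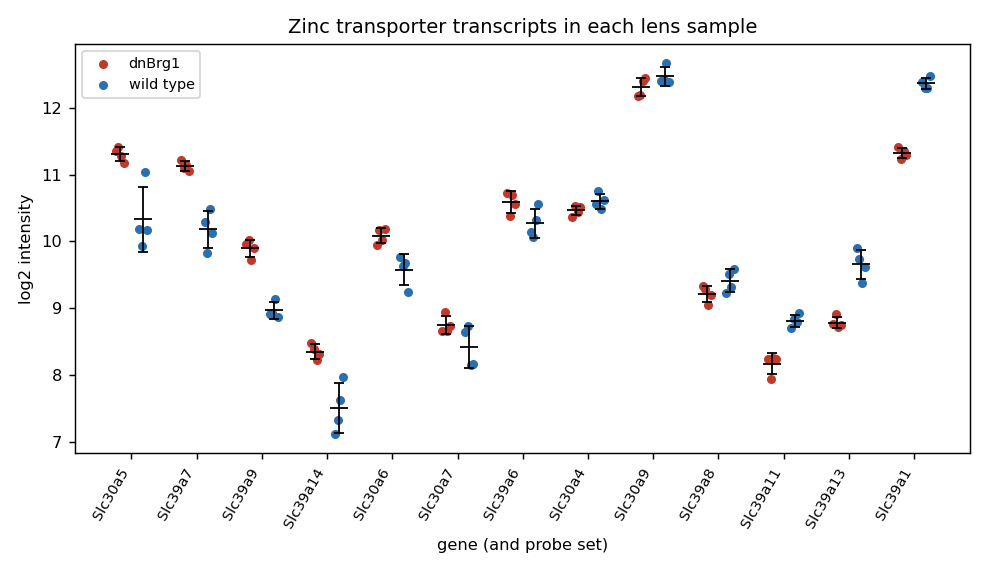
Log2 intensity (vertical axis) of the 13 bright zinc transporter probe sets, 1 per gene (horizontal axis, ordered from the highest to the lowest difference), in each of the 4 dnBrg1 samples (red, left of each pair) and 4 wild type samples (blue, right). Bars show mean and SD, and the groups are separate for 8 genes, with dnBrg1 above in 5 and below in 3.

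The SLC25 family brings nucleotides, phosphate and metabolites across the inner mitochondrial membrane. Slc25a5 (ANT2), an exchanger of ADP and ATP, had the clearest gain, and all 7 of its bright probe sets were called higher, by 0.72 to 1.29. Its probe set 1430542_a_at was at 13.09, 13.07, 13.21 and 13.23 in dnBrg1 samples and 11.91, 11.69, 12.20 and 11.66 in wild type samples. The groups were separated by a wide gap, a 2.44-fold increase (1.29 ± 0.13, adjusted p = 0.00010). The other 6 probe sets carry the suffix _x_at, which Affymetrix gives to probes that can bind several sequences, and ANT genes have closely related copies in the genome, so these 6 may also read related transcripts. A dim probe set without that suffix, 1438545_at, was higher by 1.23 ± 0.11 (adjusted p = 5.2e-05). With the covariate the differences of the 7 bright probe sets were 0.31 to 0.65 and none was called.

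Slc25a4 (ANT1), the muscle and heart form of the exchanger, was the brightest solute carrier of all, with a mean of 13.25 at 1424562_a_at. That probe set was at 13.27, 13.34, 13.48 and 13.40 in dnBrg1 and 13.19, 13.08, 13.09 and 13.18 in wild type samples, a narrow separation that did not pass the test (0.24 ± 0.09, adjusted p = 0.070). A second probe set, 1455069_x_at, was not called either (0.14, adjusted p = 0.24), while the third, 1434897_a_at, was called lower (-0.36 ± 0.11, adjusted p = 0.023). A dim probe set, 1424563_at, was also called lower (-1.23 ± 0.18, adjusted p = 0.00063). The bright probe sets of Slc25a4 thus had no single direction, although both of the gene's called probe sets were lower.

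Slc25a39, required for glutathione uptake into mitochondria, was likewise divided. Its probe set 1456176_x_at was at 11.31, 11.05, 11.39 and 11.20 in dnBrg1 samples and 12.47, 12.42, 12.25 and 12.57 in wild type samples, without overlap (-1.19 ± 0.12, adjusted p = 6.9e-05). The second _x_at probe set was lower by a similar amount (-1.02 ± 0.11, adjusted p = 0.00010), but 1453111_a_at lay above wild type in every dnBrg1 sample without passing the test (0.30 ± 0.11, adjusted p = 0.057).

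**Figure D4:**
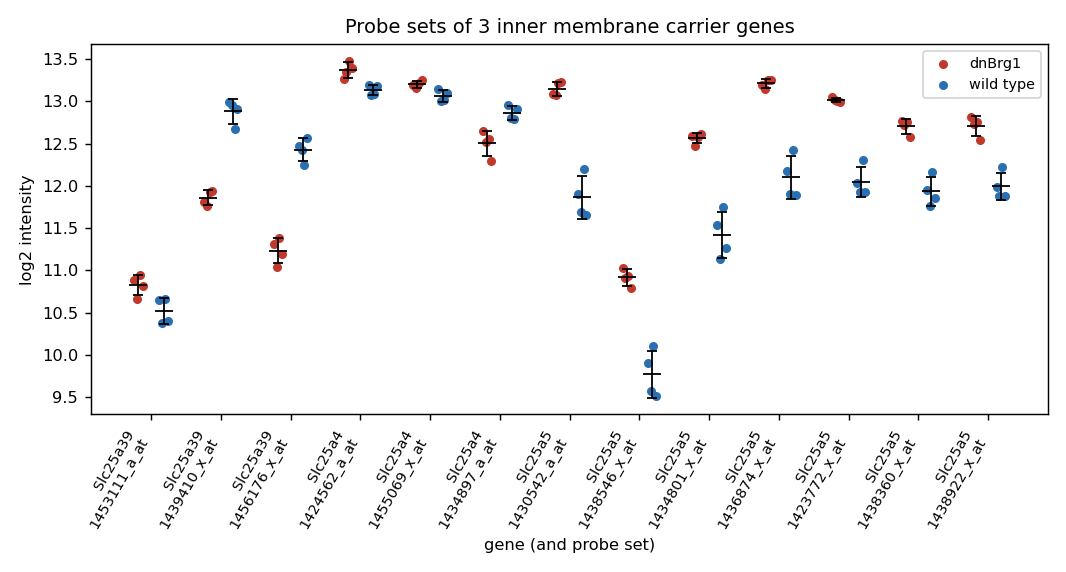
Log2 intensity (vertical axis) of all bright probe sets of Slc25a39, Slc25a4 and Slc25a5 (horizontal axis) in the 4 dnBrg1 samples (red, left) and 4 wild type samples (blue, right), with mean and SD. The 7 Slc25a5 probe sets are all higher in dnBrg1, whereas the 3 of Slc25a39 and the 3 of Slc25a4 differ in direction.

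Slc25a17, a carrier of coenzymes that belongs to the family but resides in peroxisomes, was at 10.59, 10.58, 10.63 and 10.49 in dnBrg1 and 9.78, 9.60, 9.95 and 9.49 in wild type samples. It was higher without overlap (0.87 ± 0.12, adjusted p = 0.00040). The oxoglutarate and malate carrier Slc25a11 was also higher (0.42 ± 0.12, adjusted p = 0.017), as was Slc25a44, which carries branched-chain amino acids, with both of its bright probe sets (0.84, adjusted p = 0.029, and 0.36, adjusted p = 0.043), whereas a dim probe set of Slc25a44 was called lower (-0.52, adjusted p = 0.0028). With the covariate, Slc25a44 was at -0.74 with 1436909_at (adjusted p = 0.18) and at 0.0043 with 1433448_at (adjusted p = 0.995). Lower calls were made for the ornithine carrier Slc25a15 (-0.70 ± 0.14, adjusted p = 0.0031) and for Slc25a53 (-0.34, adjusted p = 0.044). The NAD carrier Slc25a51 was lower with its dimmer probe set (-0.54 ± 0.13, adjusted p = 0.0076) but not called with the brighter one (0.26, adjusted p = 0.22). The phosphate carrier Slc25a3, among the 6 brightest solute carrier genes, did not pass the test (0.06 ± 0.14, adjusted p = 0.78), nor did the carnitine carrier Slc25a20 or the pyrimidine nucleotide carrier Slc25a36 with either of their probe sets.

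Amino acid transporters of the cell surface differed in both directions. Slc38a1 (SNAT1), a sodium-coupled glutamine transporter, was at 8.73, 8.79, 8.75 and 8.81 in dnBrg1 samples and 7.87, 8.03, 7.82 and 7.88 in wild type samples. Both groups were tight and far apart (0.87 ± 0.09, adjusted p = 0.00010), and Slc38a1 was the only bright transporter that remained called higher with the covariate (1.10, adjusted p = 0.019). The related Slc38a2 (SNAT2), which amino acid shortage induces in many cells, was at 11.83, 11.86, 11.75 and 11.76 in dnBrg1 and 12.30, 12.57, 12.05 and 12.67 in wild type samples. Slc38a2 was lower without overlap (-0.60 ± 0.14, adjusted p = 0.0079), and its difference was 0.07 with the covariate (adjusted p = 0.89). For Slc38a4 (SNAT4), the brighter probe set was higher (0.79 ± 0.17, adjusted p = 0.0055) and the dimmer was not called (-0.52, adjusted p = 0.051).

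Slc3a2 (4F2hc) is the heavy chain that pairs with light chains of the SLC7 family to exchange amino acids. It was among the brightest of the set and did not pass the test, at 12.59, 12.50, 12.49 and 12.57 in dnBrg1 and 12.75, 12.88, 12.42 and 12.77 in wild type samples (-0.17 ± 0.12, adjusted p = 0.29). Wild type replicate 3 was the sole wild type sample below the dnBrg1 values, and without it Slc3a2 was called lower (-0.26, limma adjusted p = 0.049). Its light chain Slc7a8 (LAT2), which carries large neutral amino acids and whose loss in mice has been tied to cataract, was higher, at 9.80, 9.83, 9.36 and 9.71 in dnBrg1 and 8.97, 8.49, 9.25 and 8.70 in wild type samples (0.82 ± 0.18, adjusted p = 0.0053). The lowest dnBrg1 sample lay just above wild type replicate 3, and with the covariate the difference was -0.04 (adjusted p = 0.95). Slc7a5 (LAT1) was higher by 0.50 ± 0.16 (adjusted p = 0.033), a call that was lost without any 1 of the dnBrg1 samples or without wild type replicate 4, with adjusted p of 0.057 to 0.080. The neutral amino acid transporter Slc1a4 (ASCT1) was higher with its dimmer bright probe set (0.59 ± 0.13, adjusted p = 0.0060) and not called with the much brighter one (-0.11, adjusted p = 0.47). A dim Slc1a4 probe set, 1423550_at, was also called higher (0.56, adjusted p = 0.0082), and remained so with the covariate (1.08, adjusted p = 0.046).

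Slc66a1 (PQLC2), which exports cationic amino acids from lysosomes, was at 7.40, 7.19, 7.50 and 7.18 in dnBrg1 samples and 8.13, 8.33, 8.04 and 8.80 in wild type samples. It was lower 2.01-fold (-1.01 ± 0.17, adjusted p = 0.0014), and it is 1 of the 3 probe sets that passed the brightness limit through 1 group alone, here wild type. Slc66a2 was lower by -0.85 ± 0.20 (adjusted p = 0.0069) with its bright probe set and higher with a dim one (0.35, adjusted p = 0.023). The peptide transporter Slc15a1 (PEPT1) was lower by -0.96 ± 0.20 (adjusted p = 0.0039), while the peptide transporters Slc15a2 (PEPT2, -0.05, adjusted p = 0.85) and Slc15a4 (0.15, adjusted p = 0.28) did not pass the test.

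Folate has a pair of known carriers in this set. Both probe sets of Slc46a1, the proton-coupled folate transporter, were lower (-0.61 ± 0.12, adjusted p = 0.0036, and -0.51 ± 0.13, adjusted p = 0.0098). The reduced folate carrier Slc19a1 was lower with 2 of its 3 bright probe sets (-0.44 and -0.38, adjusted p = 0.032 and 0.034) and not called with the third (0.31, adjusted p = 0.083). With the covariate neither of the 2 called Slc19a1 probe sets kept its sign. The thiamine transporter Slc19a2 was at 7.84, 8.07, 7.74 and 7.52 in dnBrg1 and 8.67, 8.63, 8.68 and 8.50 in wild type samples, again without overlap (-0.83 ± 0.13, adjusted p = 0.00085). Slc29a3, a nucleoside transporter of lysosomes, was lower by -0.46 ± 0.13 (adjusted p = 0.017).

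The choline transporter-like genes went opposite ways. Slc44a1 was at 11.42, 11.45, 11.51 and 11.26 in dnBrg1 and 10.48, 10.36, 11.03 and 10.47 in wild type samples, higher without overlap (0.82 ± 0.15, adjusted p = 0.0023). Slc44a2 showed the steepest decrease of any bright probe set in the group with 1438559_x_at, at 10.14, 10.14, 10.23 and 9.88 in dnBrg1 and 11.72, 12.15, 11.17 and 11.95 in wild type samples. This was a 3.14-fold decrease (-1.65 ± 0.20, adjusted p = 0.00020), but the other probe set, 1428065_at, was not called (-0.21, adjusted p = 0.25).

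Slc48a1 (HRG1), which moves heme from lysosomes to the cytosol, held both the largest increase and a decrease. With 1450409_a_at it was at 8.54, 8.48, 8.74 and 8.58 in dnBrg1 samples and 6.65, 6.87, 7.26 and 7.26 in wild type samples, 2.98-fold higher (1.58 ± 0.15, adjusted p = 6.9e-05), and this probe set passed the brightness limit through the dnBrg1 samples alone. With 1450410_a_at it was at 8.26, 8.23, 8.48 and 8.24 in dnBrg1 and 9.11, 8.96, 8.84 and 9.17 in wild type samples (-0.72 ± 0.11, adjusted p = 0.00085). Neither pair of groups overlapped, so the same gene was called in opposite directions.

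Slc48a1 was 1 of 5 such genes among bright probe sets. Of 29 genes with several bright probe sets (70 in all), 6 had all probe sets called in the same direction, 10 had some called, 8 had none called and 5 had opposite calls. The others with opposite calls were Slc38a10 (-1.15 and 0.55, with the third probe set at -0.02), Slc35a4 (-1.15 and 0.53), Slc37a3 (-0.46 and 0.60) and the light chain Slc7a6 (-0.43 and 0.65). Of these, the decrease of Slc7a6 was lost without any 1 sample other than wild type replicate 3 (adjusted p of 0.074 to 0.10). Dim probe sets were called in 11 of the genes whose bright calls all ran 1 way, and in 5 of these, namely Slc12a2, Slc25a44, Slc35a2, Slc66a2 and Slc6a8, a dim call ran the other way. In 8 genes the bright probe sets spanned more than 1 on the log2 scale. The positions of the probe sets along the transcripts were not used here.

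**Figure D5:**
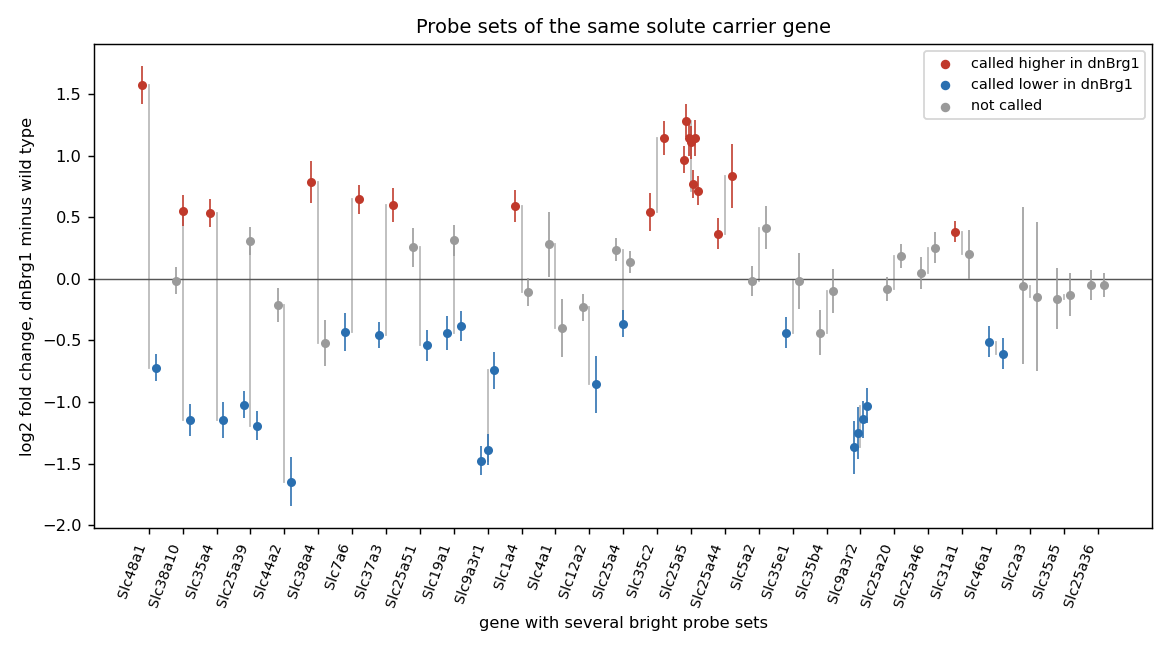
Log2 difference (dnBrg1 minus wild type, vertical axis) with its standard error for each bright probe set of the 29 genes that have several (horizontal axis), in red if called higher, blue if called lower and grey if not called. Grey lines join probe sets of 1 gene, and 5 genes have both red and blue points.

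Transporters of the Golgi and endoplasmic reticulum supply donors for glycan synthesis and sulfation. Both known carriers of PAPS, the sulfate donor, were higher. Slc35b2 was at 9.03, 8.89, 9.17 and 9.04 in dnBrg1 samples and 7.97, 7.50, 8.09 and 7.76 in wild type samples, a 2.30-fold increase without overlap (1.20 ± 0.14, adjusted p = 0.00018). Slc35b3 was at 8.95, 9.30, 9.0 and 9.20 in dnBrg1 and 8.47, 7.97, 8.65 and 7.97 in wild type samples, also without overlap (0.84 ± 0.17, adjusted p = 0.0041). The 2 differences were 0.49 and -0.02 with the covariate (adjusted p = 0.20 and 0.98).

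Slc35c2, linked to fucosylation of Notch, was higher with both bright probe sets (1.14 ± 0.14, adjusted p = 0.00024, and 0.55 ± 0.15, adjusted p = 0.018). The smaller of these calls was lost without dnBrg1 replicate 3 (0.46, adjusted p = 0.052). The UDP-galactose transporter Slc35a2 was lower with its bright probe set (-0.55 ± 0.11, adjusted p = 0.0032), while of its dim probe sets 1422827_x_at was called lower (-0.31, adjusted p = 0.049) and 1436664_a_at higher (0.64, adjusted p = 0.0022). Slc35e1 was lower with 1 of 2 probe sets (-0.44, adjusted p = 0.021), a call lost without dnBrg1 replicate 4 or wild type replicate 4 (adjusted p = 0.061 and 0.055). Slc35a1, Slc35a3 and Slc35d1, which carry CMP-sialic acid, UDP-N-acetylglucosamine and UDP-glucuronic acid, did not pass the test with their bright probe sets (-0.02, 0.09 and -0.42), although a dim probe set of Slc35a1 was called higher (0.53, adjusted p = 0.039) and one of Slc35a3 lower (-0.60, adjusted p = 0.0075). Slc33a1, which brings acetyl-CoA into the endoplasmic reticulum, was lower by -0.51 ± 0.12 (adjusted p = 0.0076), and Slc10a3, a relative of the bile acid transporters, by -1.16 ± 0.18 (adjusted p = 0.00074) with a probe set that passed the brightness limit through the wild type samples alone.

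Lactate and sugars are fuels of glycolytic cells. Slc16a3 (MCT4), a lactate exporter, was at 9.47, 9.25, 9.66 and 9.55 in dnBrg1 samples and 8.54, 8.68, 8.69 and 8.22 in wild type samples, higher without overlap (0.95 ± 0.14, adjusted p = 0.00062). Slc16a1 (MCT1) overlapped widely, at 11.48, 11.59, 11.29 and 11.45 in dnBrg1 and 11.43, 10.93, 11.93 and 11.47 in wild type samples (0.02 ± 0.19, adjusted p = 0.95). Slc50a1, a sugar transporter of the SWEET type, was lower by -0.65 ± 0.16 (adjusted p = 0.011).

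The glucose transporter Slc2a3 (GLUT3) varied most between samples of 1 group. With 1437052_s_at it was at 10.54, 7.19, 8.08 and 7.83 in dnBrg1 and 7.77, 9.20, 8.29 and 8.60 in wild type samples, and with 1455898_x_at at 10.23, 6.97, 8.06 and 7.73 in dnBrg1 and 7.85, 9.09, 8.07 and 8.55 in wild type samples. dnBrg1 replicate 1 was the highest of all 8 samples and replicate 2 the lowest with both probe sets. The differences did not pass the test (-0.06 ± 0.64 and -0.14 ± 0.61, adjusted p = 0.95 and 0.87). Without dnBrg1 replicate 1 they were -0.76 and -0.80 (limma adjusted p = 0.11 and 0.099). The SD of the dnBrg1 samples was 1.47 and 1.40, against a median dnBrg1 SD of 0.14 over the bright solute carrier probe sets.

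Osmolyte and ion transporters set the volume of lens cells. The taurine transporter Slc6a6, whose substrate is a major osmolyte, had overlapping groups with its bright probe set, at 10.31, 10.73, 10.55 and 11.33 in dnBrg1 and 10.66, 9.72, 11.30 and 10.78 in wild type samples (0.11 ± 0.33, adjusted p = 0.80). Its dim probe sets 1420148_at (-0.96, adjusted p = 0.0025) and 1449751_at (-0.74, adjusted p = 0.014) were called lower, the first also with the covariate (-1.79, adjusted p = 0.024). The glycine transporter Slc6a9 (GLYT1) was at 10.70, 11.0, 10.88 and 11.02 in dnBrg1 and 11.38, 11.62, 11.55 and 11.57 in wild type samples, lower without overlap (-0.63 ± 0.11, adjusted p = 0.0016). The creatine transporter Slc6a8 was lower with its bright probe set (-0.67 ± 0.18, adjusted p = 0.014) and higher with a dim one (0.79, adjusted p = 0.0030). Slc6a15, which carries branched-chain amino acids, was higher by 0.81 ± 0.24 (adjusted p = 0.021), but the call was lost without dnBrg1 replicate 2 or 4 or wild type replicate 4 (adjusted p = 0.054, 0.062 and 0.054).

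Slc12a2 (NKCC1), the sodium, potassium and chloride cotransporter, was lower with 1448780_at, at 8.08, 8.28, 7.69 and 8.15 in dnBrg1 and 9.09, 8.34, 9.45 and 8.74 in wild type samples. The highest dnBrg1 value lay just under the lowest wild type value (-0.85 ± 0.23, adjusted p = 0.016). This probe set was also called lower with the covariate (-2.13, adjusted p = 0.018). Among wild type samples it fell as the control mean rose, from 9.45 at a control mean of 1.43 to 8.34 at 2.66. The larger difference with the covariate extends this trend to control values that no wild type sample had. The far brighter 1417622_at did not pass the test (-0.23 ± 0.11, adjusted p = 0.12). Another, dim probe set of Slc12a2 was called in the opposite direction (1.53, adjusted p = 0.0034). The bicarbonate cotransporter Slc4a5 (-0.96 ± 0.27, adjusted p = 0.017), the anion exchanger Slc4a3 (-0.37 ± 0.11, adjusted p = 0.028) and Slc12a9 (-0.62 ± 0.20, adjusted p = 0.036) were lower, and each lost its call without at least 1 sample. For Slc4a5 this was dnBrg1 replicate 3 (-0.85, adjusted p = 0.050). For Slc4a3 and Slc12a9 it was any 1 of the dnBrg1 samples or wild type replicate 4, and for Slc4a3 also wild type replicate 2, with adjusted p of 0.056 to 0.083. The erythrocyte anion exchanger Slc4a1 was not called with either probe set (0.28 and -0.40), and none of the erythroid markers was called either.

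The genes of the group that do not encode transporters were lower with every bright probe set. Slc9a3r1 (NHERF1), a scaffold that anchors membrane transporters to the cytoskeleton through ezrin, was at 10.38, 10.25, 10.35 and 10.21 in dnBrg1 samples and 11.53, 11.96, 11.71 and 11.90 in wild type samples. This gap was a 2.78-fold decrease (-1.48 ± 0.12, adjusted p = 3.0e-05), and it remained called with the covariate (-1.11, adjusted p = 0.041). Its other probe sets were lower by -1.39 and -0.74. The related Slc9a3r2 (NHERF2) was lower with all 4 of its bright probe sets, by -1.37 to -1.03 (adjusted p of 0.00035 to 0.0014), of which 2 are _x_at probe sets. With the covariate none of the 4 was called (adjusted p of 0.090 to 0.93). Slc9a3r2 was then at -0.23 with 1428954_at, -0.06 with 1428955_x_at, -1.2 with 1439368_a_at and -1.1 with 1439369_x_at. Slc4a1ap was lower by -0.63 ± 0.13 (adjusted p = 0.0042).

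Of 12 solute carriers with a known or discussed part in the lens, 7 had bright probe sets and are described above (Slc7a8, Slc6a6, Slc12a2, Slc2a3, Slc38a2, Slc3a2 and Slc7a5). Of the others, the glutamine transporter Slc1a5 (ASCT2) was dim and higher, averaging 7.50 in dnBrg1 and 6.40 in wild type samples (1.11 ± 0.11, adjusted p = 9.2e-05). Slc1a5 was also called higher with the covariate (1.36, limma adjusted p = 0.025). The ascorbate transporter Slc23a2 averaged 7.20 in dnBrg1 and 7.65 in wild type samples with its brighter probe set (-0.45 ± 0.11, adjusted p = 0.0077). The cystine transporter Slc7a11 (-0.07, adjusted p = 0.79) and the inositol transporter Slc5a3 (0.03, adjusted p = 0.89) were dim and did not pass the test, and Slc16a12 was not analysed here.

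The 262 dim solute carrier probe sets gave 25 higher and 47 lower calls, or 27.5%, against 28.1% of all dim probe sets, with a median difference of -0.15. Near the brightness limit, Slc19a1 (1448132_at, mean 7.73) and Slc35b4 (1416548_at, mean 7.77) lay just inside, while Slc1a4 (1423550_at, mean 7.65) and Slc9a3r2 (1452976_a_at, mean 7.63) lay just outside.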

How the data were processed

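Lens RNA of 4 dnBrg1 and 4 wild type E15.5 samples was amplified from 50 ng of total RNA and hybridized to Affymetrix mouse genome arrays, 1 per sample. The authors processed the scans by RMA, which corrects background, equalizes the arrays and summarizes probe sets, so that a shift common to most transcripts is not seen. The deposited values are intensities on a linear scale and were taken to log2 here. Arrays give no read depth, and their number limits the precision. Groups follow the genotype label, nothing in the labels ties samples of the same number, and p-values measure the spread between these samples.

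Of 22690 probe sets, 64 controls were set aside. Gene names came from the platform annotation, in which 20380 probe sets name 1 gene, 691 several and 1555 none. In the solute carrier group, 7 probe sets of the 3 genes named above and 3 that name several genes were left out. The remaining probe sets were fitted with limma 3.58.1 (R 4.3.3, lmFit and eBayes, no covariate, no filter), which was tested on simulated data. The members, substrate classes and marker lists were chosen with earlier results of these data known. The named genes are up to 4 called increases and 4 called decreases of largest size per class, the 6 brightest genes, genes with opposite calls, and 12 genes with a part in the lens. The ZnT and ZIP families are described with every bright member. In other families, such as SLC25, SLC38 and SLC7, some bright members that were not called are not described. Other members were named after their values were seen, as were the dim probe sets.

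Markers not described above were those of endothelium (3 called higher and 2 lower of 8), retinal neurons (1 and 4 of 8), pigment cells (0 and 1 of 6), mesenchyme (0 and 0 of 7) and skeletal muscle (1 and 0 of 7). Promoters are RefSeq sequences (GRCm38.p6). Alternatives covered scaling, filters, a constant of 16, array weights, the variance model, leaving out each sample, a replicate block, the described RNA, the control covariate, stricter limits and the methods' t-test. The class of associated proteins, and the counts without it, per gene and by probe set suffix, were added after the data were seen. Sequence positions of the probes were not used here.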

Additional observations from a re-analysis of the deposited data

Results flagged for a closer look

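Each group of 4 samples was screened for a sample that lies far from the other 3, over 136 groups (68 named probe sets in dnBrg1 and in wild type). Chance flags about 1 in 20 groups, and 3 were flagged. For Slc48a1 with 1450410_a_at, dnBrg1 replicate 3 was at 8.48 on the log2 scale and the other dnBrg1 samples between 8.23 and 8.26, all below the wild type samples. For Slc39a11, dnBrg1 replicate 2 was at 7.94 and the other dnBrg1 samples between 8.23 and 8.26, again all below the wild type samples. For Slc30a9, wild type replicate 3 was at 12.7 and the other wild type samples between 12.39 and 12.41, and the difference between the groups was not called.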

How the results depend on the processing

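Of 58 named calls, 50 stood without any 1 sample and 8 were lost without some sample, as given above. Counts of 35 higher and 45 lower became 2 and 5 with the control covariate, 23 and 27 with only dnBrg1 replicates 1 and 2 against wild type (fewer samples), 23 and 24 at a mean log2 of at least 9 (fewer probe sets), and 21 higher with 1 probe set per gene. In the other settings they stayed within 1.5 times, with 31 to 41 higher and 36 to 49 lower when 1 sample was left out.

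With the control covariate the sign turned for 12 of the 58 named calls. These were Slc38a2 (0.072), Slc66a2 (0.27), Slc7a5 (-0.35), Slc7a6 1433467_at (0.42), Slc7a8 (-0.045), Slc6a15 (-0.37), Slc6a8 (0.057), Slc35b3 (-0.020), Slc12a9 (0.25), Slc4a5 (0.36), Slc50a1 (0.043) and Slc30a5 (-0.23). Calls outside the named set whose sign turned were Slc25a44 1436909_at (-0.74), Slc43a3 (0.25) and both called Slc19a1 probe sets. The sign also turned for the uncalled Slc3a2 (0.35), Slc6a6 (-1.60) and Slc2a3 (1.22 and 1.20). None of all these was then called. The cause was not tested, and this fit extends the trend among wild type samples to control values that none of them had. Other turns concerned uncalled values. With the described RNA as a covariate, or only dnBrg1 replicates 1 and 2, Slc6a6 1421346_a_at was at -0.095 and Slc2a3 at 0.40 and 0.21, and with array weights Slc2a3 was at 0.25 and 0.10. Leaving out 1 sample gave -0.094 to 0.037 for Slc38a10 1427294_a_at, -0.071 to 0.16 for Slc25a3, -0.18 to 0.34 for Slc6a6, and -0.76 to 0.35 and -0.80 to 0.28 for Slc2a3.

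With dnBrg1 replicates 1 and 2 alone, the control difference was -1.87 for β-actin (exact p = 0.067, the smallest possible) and -0.92 for Gapdh (exact p = 0.13). Without 1 sample it ranged from -2.14 to -1.77 and from -1.13 to -0.67 (exact p of 0.029 to 0.057).

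Deviations of same-numbered samples correlated at -0.19, -0.01, -0.05 and 0.16. These few values did not share a sign, and they cannot exclude a pairing by replicate number. With a replicate block, 31 probe sets were higher and 38 lower, and 5 of the 58 named calls were lost. For 150 genes all probe sets were dim, and arrays cannot separate transcripts that share probes.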
